A study of Mus musculus with 46 samples.

Results

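Cirbp and Rbm3 encode small RNA-binding proteins with an RNA recognition motif and a glycine-rich tail, and both were read here in the BNST, the bed nucleus of the stria terminalis, dissected from mice given chronic intermittent ethanol (CIE) vapor or air (Ctrl). Members were all probesets whose gene symbol in the platform annotation was Cirbp or Rbm3. This gave 3 of 45037 probesets. Probeset 1416332_at carried the symbol Cirbp alone. Probesets 1422660_at and 1429169_at each carried Rbm3 together with Rbm3-ps, its pseudogene, so transcripts of the gene and of the pseudogene cannot be told apart and these 2 are called Rbm3/Rbm3-ps probesets here. Probeset 1422660_at had the higher mean level and is called the brighter one, and probeset 1429169_at the dimmer one. The sources used here do not say which part of a transcript each probeset reads.

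The BNST belongs to the extended amygdala and takes part in stress and in ethanol withdrawal. All mice were adult male C57BL/6J. CIE mice went through 4 cycles of 4 days with 16 hours per day in ethanol vapor and 7 days of abstinence between cycles, and at the start of each cycle they were given ethanol (1.6 g/kg) and pyrazole (1 mmol/kg), an inhibitor of alcohol dehydrogenase. Ctrl mice went through the same cycles in air and were given saline and the same dose of pyrazole, so every group carried pyrazole and no group was untreated. The last session was followed by 0 h, 8 h, 72 h or 7 d without vapor before tissue was taken, with 22 CIE arrays (6, 6, 6 and 4 mice) and 24 Ctrl arrays (6 mice at each time), 1 mouse per array. The authors describe 6 mice for each treatment and time, and the sources used here do not say why CIE at 7 d has 4 arrays. Dissected tissue holds several cell types, so fewer cells of a type and less RNA per cell cannot be told apart. Body temperature, activity and food intake were not measured, and the part of any of them in the results was not tested.

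CIRBP and RBM3 are known as cold shock proteins of mammals: their transcripts and proteins rise in cells and tissues that are cooled mildly and fall when these are warmed, the reverse of heat shock genes. CIRBP binds the transcripts of stress and clock genes, and in mouse cells it affects the choice of polyadenylation sites and the strength of the circadian rhythm. RBM3 promotes translation and is known in mouse brain for its part in keeping and rebuilding synapses after cooling. Daily changes of body temperature are enough to move both transcripts in mice, so their level also follows the time of day.

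The deposited values were log2 intensities summarised by RMA, which are relative and comparable between mice within a probeset, not between probesets. On this scale array medians lay between 6.78 and 6.83, and any 2 arrays correlated between 0.981 and 0.998. Averaged over 46 arrays, Cirbp stood at 10.8, above 92.5% of probesets, the brighter Rbm3/Rbm3-ps probeset at 11.7, above 96.9%, and the dimmer probeset at 6.78, in the middle of the distribution (above 49.9%). Such ranks, here and for the markers, are only a rough guide, since values are not comparable between probesets. Markers fixed for the BNST and its GABA neurons (Gad1, Gad2, Slc32a1, Crh, Penk, Tac2, Zic1, Lhx8, Pdyn, Npy2r) were all measured, with mean levels above 68.9% to 99.5% of probesets. Measured markers of medium spiny neurons of the neighbouring striatum stood above 65.0% (Drd2) to 94.6% (Pde10a) of probesets, so the ranges overlapped. A probeset was called where limma's Benjamini-Hochberg adjusted p over all 45037 probesets was 0.01 or less, and errors given as ± are SD over mice.

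At the end of the last vapor session Cirbp and the brighter Rbm3/Rbm3-ps probeset rose in CIE BNST, while the dimmer Rbm3/Rbm3-ps probeset fell. At 8 h the brighter probeset was still raised and the dimmer probeset still lowered, and Cirbp was no longer called. At 72 h and 7 d none of the 3 probesets passed the test. All 3 members were called at 0 h, where 2.4% of all probesets were called, and 2 of 3 at 8 h, where 0.557% were. At 72 h and 7 d, 0.433% and 0% of probesets were called.

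**Figure D1:**
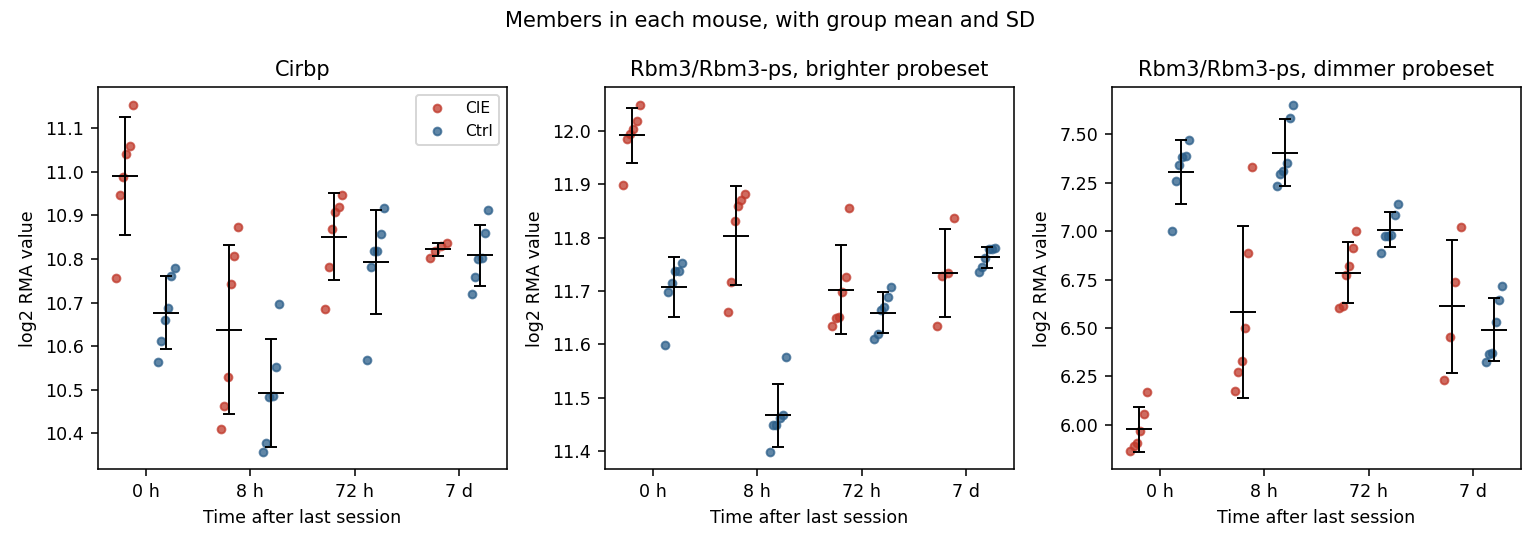
Each point is 1 mouse, with log2 RMA values on the y axis and time after the last session on the x axis, CIE (red) left of Ctrl (blue) at each time. Black bars are the group mean and SD (n = 6, CIE 7 d n = 4). At 0 h CIE mice lay above all Ctrl mice for the brighter probeset and below all of them for the dimmer probeset.

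Cirbp at 0 h had log2 values of 10.76, 10.95, 10.99, 11.04, 11.06 and 11.15 in CIE mice, against 10.56, 10.61, 10.66, 10.69, 10.76 and 10.78 in Ctrl mice. Of the 6 CIE mice, 5 lay above every Ctrl mouse, and the lowest (mouse 67) lay within the Ctrl range. The means were 10.99 ± 0.14 in CIE and 10.68 ± 0.08 in Ctrl, a log2 difference of 0.31 (SE 0.069, adjusted p = 0.00288), which is 1.24-fold. This call did not hold without mouse 19 or 26 of CIE or mouse 56 of Ctrl, with a difference between 0.28 and 0.36 over all mice left out in turn and an adjusted p of at most 0.0116. It did not hold either in a limma fit of only the 2 groups compared (adjusted p = 0.0313) or in the two-sided exact permutation test over mice (adjusted p = 0.0195 over 12 comparisons).

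The promoter of Cirbp is shown because one element known in it, the mild cold response element TCCCCGCC that binds the factor Sp1, was found by its letters. RefSeq on GRCm38.p6 gives 2 start windows for the gene, each of 300 bases on the plus strand, and the first of them, chr10:80167589-80167888, holds the element (in capitals) 247 bases before the start.
Cirbp promoter: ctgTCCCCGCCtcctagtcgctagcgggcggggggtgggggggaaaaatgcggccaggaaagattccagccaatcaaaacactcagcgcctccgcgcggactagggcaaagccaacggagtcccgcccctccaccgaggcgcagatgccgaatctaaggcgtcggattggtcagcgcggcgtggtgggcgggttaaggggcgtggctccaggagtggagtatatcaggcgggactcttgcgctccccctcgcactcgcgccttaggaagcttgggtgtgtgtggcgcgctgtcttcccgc
The element was searched on both strands and was in 5.38% of 32851 promoter windows of the same length. The same window held 3 GC boxes (GGGCGG, in 35.7% of windows) and 0 copies of the heat shock element core GAANNTTC (in 7.86% of windows). The second window held 0 mild cold response elements, 4 GC boxes and 0 heat shock element cores. These are matches of letters in one window and no measure of binding. The Rbm3 promoter and both protein sequences are not shown.

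At 8 h Cirbp values were 10.41, 10.46, 10.53, 10.74, 10.81 and 10.87 in CIE mice, against 10.36, 10.38, 10.48, 10.49, 10.55 and 10.70 in Ctrl mice. The groups overlapped, since 3 of the 6 CIE mice lay above the highest Ctrl mouse and 3 inside the Ctrl range. The difference was 0.15 (95% CI 0.0068 to 0.28, adjusted p = 0.436). Cirbp averaged 10.85 ± 0.10 in CIE and 10.79 ± 0.12 in Ctrl at 72 h (difference 0.058, adjusted p = 0.849), and 10.82 ± 0.01 in CIE and 10.81 ± 0.07 in Ctrl at 7 d (difference 0.014, 95% CI -0.14 to 0.17, adjusted p = 1.0). Over the 4 times together the CIE effect on Cirbp missed the threshold (moderated F test, adjusted p = 0.0114, against 2.84% of probesets called), and a change of its CIE effect between times was not called (adjusted p = 0.247).

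The brighter Rbm3/Rbm3-ps probeset at 0 h had values of 11.90, 11.99, 11.99, 12.00, 12.02 and 12.05 in CIE mice, against 11.60, 11.70, 11.71, 11.74, 11.74 and 11.75 in Ctrl mice. The groups did not overlap, which was so in this direction for 1.15% of all probesets. The log2 difference was 0.28 (SE 0.041, adjusted p = 6.39e-06), a 1.22-fold rise.

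At 8 h this probeset had values of 11.66, 11.72, 11.83, 11.86, 11.87 and 11.88 in CIE mice, against 11.40, 11.45, 11.45, 11.46, 11.47 and 11.58 in Ctrl mice. Again all 6 CIE mice lay above all Ctrl mice (0.524% of probesets in this direction), and the difference was 0.34 (SE 0.041, adjusted p = 7.16e-07), 1.26-fold. In a limma fit of only these 2 groups, with fewer arrays to estimate the spread, the adjusted p was 0.0145 and the call did not hold. By p the difference ranked 14 among all 45037 probesets at this time, although by size in either direction it ranked only 614, since the mice of a group lay close together. Levels in both treatments were lower at 8 h than at 0 h, so the difference stood although the CIE level itself had fallen.

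At 72 h the brighter probeset averaged 11.70 ± 0.08 in CIE and 11.66 ± 0.04 in Ctrl (difference 0.043, 95% CI -0.039 to 0.13, adjusted p = 0.779). At 7 d it averaged 11.73 ± 0.08 in CIE and 11.76 ± 0.02 in Ctrl (difference -0.030, 95% CI -0.12 to 0.062, adjusted p = 1.0). Its CIE effect changed between times (moderated F test, adjusted p = 6.59e-05, against 1.04% of probesets called). The effect was lower by 0.31 on the log2 scale at 7 d than at 0 h (adjusted p = 0.00261), by 0.29 at 72 h than at 8 h (adjusted p = 0.00296) and by 0.37 at 7 d than at 8 h (adjusted p = 0.000848), while the drop of 0.24 between 0 h and 72 h missed the threshold (adjusted p = 0.0125). In the same comparisons 0.437%, 0.515%, 0.153% and 0.988% of probesets were called.

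The dimmer Rbm3/Rbm3-ps probeset moved the other way. Its log2 differences at 0 h and 8 h were larger in size, on a scale that is not comparable between probesets. At 0 h its values were 5.87, 5.89, 5.91, 5.97, 6.05 and 6.17 in CIE mice, against 7.00, 7.26, 7.34, 7.38, 7.39 and 7.47 in Ctrl mice. A gap of 0.83 separated the highest CIE mouse from the lowest Ctrl mouse, and 1.35% of probesets had no overlap in this direction. The log2 difference was -1.33 (SE 0.13, adjusted p = 1.46e-09), 2.51-fold lower. By size it ranked 9 among all probesets in either direction and 2 among falls.

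At 8 h the values were 6.17, 6.27, 6.33, 6.50, 6.89 and 7.33 in CIE mice, against 7.23, 7.30, 7.31, 7.35, 7.59 and 7.65 in Ctrl mice. Of the 6 CIE mice, 5 lay below all Ctrl mice and mouse 69 lay among them. The difference was -0.82 (SE 0.13, adjusted p = 9.32e-05), 1.77-fold lower. By size it ranked 25 among all probesets in either direction and 9 among falls. This call did not hold in a limma fit of only the 2 groups compared (adjusted p = 0.0653) or in the two-sided exact permutation test (adjusted p = 0.0208). The CIE mice were spread more widely here than in any other group for this probeset (SD 0.44, against 0.091 to 0.34 in the other 7 groups).

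At 72 h the dimmer probeset averaged 6.79 ± 0.16 in CIE and 7.01 ± 0.09 in Ctrl, with 4 of 6 CIE mice below all Ctrl mice (difference -0.22, adjusted p = 0.517). At 7 d it averaged 6.61 ± 0.34 in CIE and 6.49 ± 0.16 in Ctrl (difference 0.12, 95% CI -0.17 to 0.41, adjusted p = 1.0). Its CIE effect was less negative by 1.11 at 72 h than at 0 h (adjusted p = 0.000134), by 1.45 at 7 d than at 0 h (adjusted p = 1.1e-05) and by 0.94 at 7 d than at 8 h (adjusted p = 0.00937). A change between 0 h and 8 h was not called for any of the 3 probesets, among 0.0799% of all probesets called. For the dimmer probeset it was 0.51 (95% CI 0.14 to 0.87, adjusted p = 0.367).

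**Figure D2:**
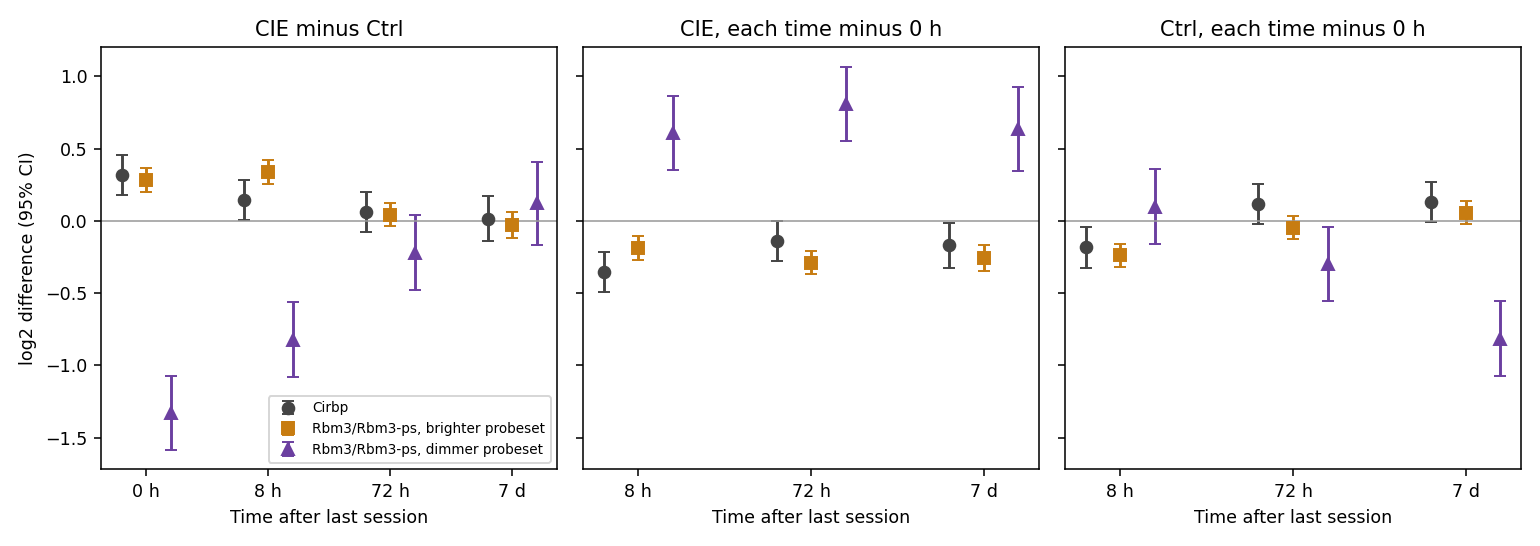
Log2 differences with 95% confidence intervals from limma for Cirbp (circles) and Rbm3/Rbm3-ps brighter (squares) and dimmer (triangles) probesets. Panels show CIE minus Ctrl at each time, then CIE and Ctrl mice at 8 h, 72 h and 7 d minus their own 0 h group. The dimmer probeset lies at -1.33 at 0 h and at 0.12 at 7 d, where all 3 intervals include 0.

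Opposite calls of probesets with one annotation were rare. At 0 h, 103 symbol entries had more than 1 called probeset, and 3 of them (Fam120b, Trappc13 and Rbm3 with Rbm3-ps) had called probesets in both directions. At 8 h it was 1 of 25, Rbm3 with Rbm3-ps, and at 72 h it was 0 of 16. So a direction for Rbm3 depends on which of its probesets is read, and no single direction is given for the gene here. Rbm3os, the noncoding RNA annotated on the opposite strand beside Rbm3, was looked at after these values were seen. It averaged 3.92 ± 0.10 in CIE and 4.01 ± 0.13 in Ctrl at 0 h (adjusted p = 0.677) and 3.78 ± 0.11 in CIE and 3.92 ± 0.09 in Ctrl at 8 h (adjusted p = 0.549), and it was called in none of the 22 comparisons run. Rbm3os was read toward the low end of all values (2.68 to 14.4), where a change can go unseen.

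The members also differed between times in air-exposed mice. Over the 4 Ctrl groups all 3 probesets changed (moderated F test, adjusted p = 0.00191 for Cirbp, 8.44e-06 for the brighter probeset and 6.17e-06 for the dimmer probeset), among 10.9% of all probesets called. In Ctrl mice at 8 h the brighter probeset was 0.24 lower on the log2 scale than in Ctrl mice at 0 h (adjusted p = 0.000962), with all 6 mice at 8 h below all at 0 h. This ranked 26 by p in a comparison that called 0.713% of probesets, and it was not called in a limma fit of these 2 groups alone (adjusted p = 0.125). Cirbp was 0.18 lower in the same comparison, with 5 of 6 mice at 8 h below all at 0 h, and did not pass (adjusted p = 0.119). How many of all probesets had no overlap between these 2 groups was not counted. The dimmer probeset differed by 0.098 (adjusted p = 0.749). Ctrl mice at 8 h had the lowest mean of the 8 groups for Cirbp and for the brighter probeset and the highest for the dimmer probeset.

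Against Ctrl mice at 8 h, Ctrl mice at 72 h had Cirbp higher by 0.30 (adjusted p = 0.00806) and the brighter probeset higher by 0.19 (adjusted p = 0.00393), with 1.1% of probesets called. Ctrl mice at 7 d had Cirbp higher by 0.32 (adjusted p = 0.000796) and the brighter probeset by 0.30 (adjusted p = 1.9e-06), and the dimmer probeset lower by 0.91 (adjusted p = 2.48e-06), in a comparison that called 12% of all probesets. The dimmer probeset was also lower in Ctrl mice at 7 d than at 0 h by 0.81 (adjusted p = 4.36e-05, 2.23% called) and than at 72 h by 0.52 (adjusted p = 0.00646, 5.16% called). In these last comparisons Cirbp and the brighter probeset were not called, with log2 differences of 0.13 and 0.056 against 0 h and of 0.015 and 0.10 against 72 h. These comparisons share Ctrl groups with one another and with those of CIE against Ctrl at the same times. In comparisons with 8 h, time after the session, clock time and day of collection cannot be told apart. The 0 h, 72 h and 7 d labels lie whole days apart, so these groups share nominal clock time. The clock times of collection are not given. Between these groups, time after the session and day of collection still cannot be told apart.

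Within CIE mice the levels at 0 h stood apart. From 8 h on the brighter probeset was lower than at 0 h (by 0.19, 0.29 and 0.26 at 8 h, 72 h and 7 d, adjusted p = 0.00226, 1.69e-06 and 0.000152), with every later mouse below every mouse at 0 h. The dimmer probeset was higher (by 0.61, 0.81 and 0.64, adjusted p = 0.00169, 1.38e-05 and 0.00334), with every later mouse above every mouse at 0 h. The gap was narrow at 8 h, where the lowest mouse had 6.175 and the highest at 0 h had 6.171. Cirbp was lower at 8 h by 0.35 (adjusted p = 0.000667), with 4 of 6 mice below all at 0 h, and lower by 0.14 at 72 h and by 0.17 at 7 d without passing (adjusted p = 0.201 and 0.267). In these 3 comparisons 3.24%, 6.07% and 2.49% of probesets were called. The share of all probesets without overlap between times was not counted. Without CIE mouse 69 the fall of the brighter probeset at 8 h was 0.16 and no longer called (adjusted p = 0.0123). In a limma fit of only the CIE mice at 8 h and 0 h, none of the 3 changes was called (adjusted p = 0.025 for Cirbp, 0.0349 for the brighter probeset and 0.0338 for the dimmer probeset).

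The order of the 8 group means, low to high, was Ctrl 8 h, CIE 8 h, Ctrl 0 h, Ctrl 72 h, Ctrl 7 d, CIE 7 d, CIE 72 h and CIE 0 h for Cirbp. Neighbours in it differed by more than their pooled SD only between Ctrl 0 h and Ctrl 72 h and between CIE 72 h and CIE 0 h. For the brighter probeset the order was Ctrl 8 h, Ctrl 72 h, CIE 72 h, Ctrl 0 h, CIE 7 d, Ctrl 7 d, CIE 8 h and CIE 0 h, with gaps beyond the pooled SD after Ctrl 8 h (0.19) and before CIE 0 h (0.19). For the dimmer probeset it was CIE 0 h, Ctrl 7 d, CIE 8 h, CIE 7 d, CIE 72 h, Ctrl 72 h, Ctrl 0 h and Ctrl 8 h, with gaps beyond the pooled SD after CIE 0 h (0.51), after CIE 72 h (0.22) and after Ctrl 72 h (0.30). CIE at 0 h thus held an end of the order in all 3, and Ctrl at 8 h the other end.

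Across the 46 mice Cirbp and the brighter probeset correlated at r = 0.71, and at 0.59 after group means were taken out. The dimmer probeset correlated at r = -0.65 with Cirbp and -0.79 with the brighter probeset, and at -0.34 and -0.26 within groups. The points share arrays and their normalization, so these values are descriptions. The CIE mice at 8 h show the pattern most widely. Mouse 41 was highest of that group for Cirbp (10.87) and the brighter probeset (11.88) and lowest for the dimmer probeset (6.17), and mouse 69 was lowest for Cirbp (10.41) and the brighter probeset (11.66) and highest for the dimmer probeset (7.33). Mouse 21 departed from the pattern, with Cirbp (10.46) close to that of mouse 69 and the brighter probeset (11.87) close to that of mouse 41.

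**Figure D3:**
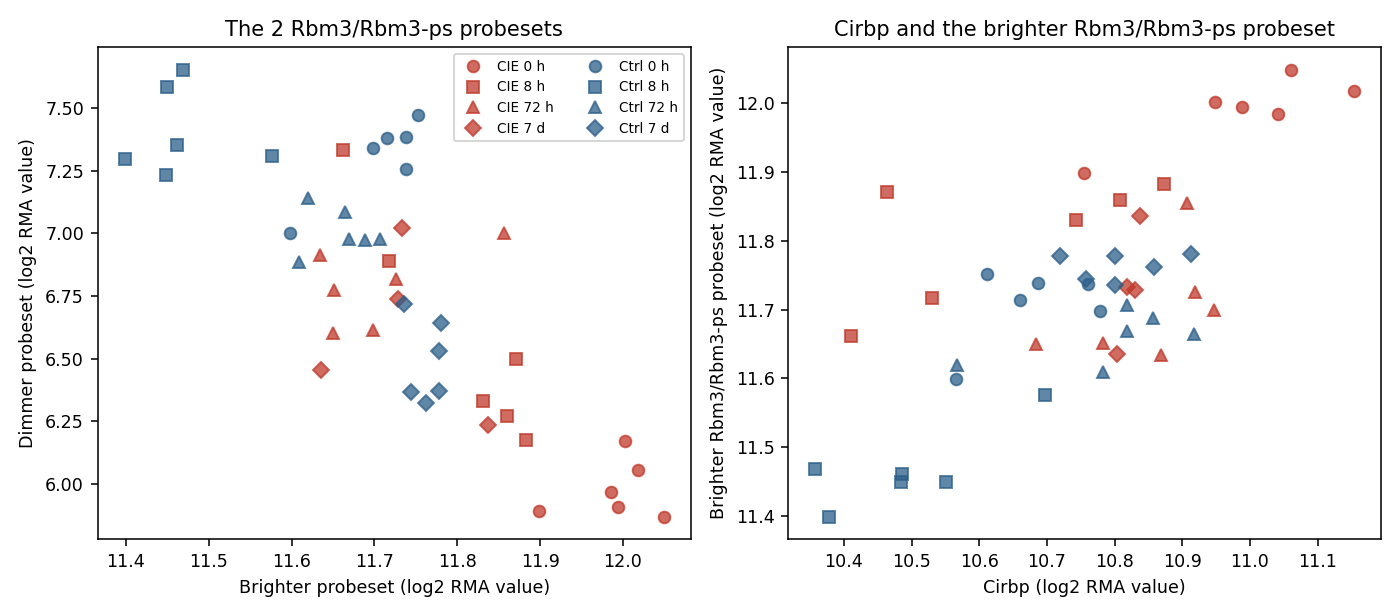
Each point is 1 of 46 mice, CIE in red and Ctrl in blue, with marker shape for the time. Left, the 2 Rbm3/Rbm3-ps probesets against each other, and right, Cirbp against the brighter probeset, all as log2 RMA values. CIE mice at 0 h and Ctrl mice at 8 h lie at opposite corners of both panels (r = -0.79 and 0.71).

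Other genes with cold shock or glycine-rich RNA-binding domains did not pass with Cirbp. Of 12 genes in that list, Cirbp and Rbm3 among them, 10 had a probeset of their own. Rbm3 was not counted, since its probesets carry several symbols. The uncalled genes had log2 differences of at most 0.37 in size at 0 h. Cirbp alone was called at 0 h (1 rose, 0 fell; 3.09% of 18193 genes called), and 0 at 8 h (0.742%), 72 h (0.687%) and 7 d (0%). The list median at 0 h, with Cirbp counted in it, was 0.054, against 0.0009 over all genes. The nearest to a call were Carhsp1, a cold shock domain protein (0.37, adjusted p = 0.0212), and Rbmxl1, a relative of Rbmx (-0.15, adjusted p = 0.0205). Carhsp1 values were 10.48 to 10.68 in CIE mice and 10.02 to 10.48 in Ctrl mice.

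Of 17 genes that regulate Cirbp and Rbm3, splice their transcripts or act with them, 16 were measured. CIE lowered 2 at 0 h and 1 at 8 h, and raised 0 at any time, where 3.09% and 0.742% of all genes were called in either direction. The list medians were -0.023 and -0.014, against 0.0009 and -0.0082 over all genes. Clk1 and Clk4 encode kinases of SR splicing factors whose activity is known from cultured cells to rise on mild cooling. Clk1 ranged from 11.48 to 11.66 (median 11.56) in CIE mice and from 11.72 to 11.95 (median 11.82) in Ctrl mice at 0 h, a difference of -0.27 (SE 0.048, adjusted p = 0.000201). At 8 h it ranged from 11.56 to 11.78 (median 11.63) in CIE and from 11.83 to 11.99 (median 11.84) in Ctrl (difference -0.23, adjusted p = 0.00534). Clk4 ranged from 9.80 to 9.98 in CIE and from 10.07 to 10.13 in Ctrl at 0 h (difference -0.24, adjusted p = 0.00222). The groups did not overlap in any of these 3. In this direction 1.35% of probesets at 0 h and 0.577% at 8 h had no overlap. Sp1, Creb1, Gsk3b, Hnrnph1 and the other 10 members were uncalled for CIE against Ctrl at every time, among them Prmt1, an arginine methyltransferase (-0.25 at 0 h, adjusted p = 0.017), and Srsf2, a splicing factor (0.15 at 8 h, adjusted p = 0.0126). Between times, Srsf2 rose in CIE mice at 8 h against 0 h (2.97% of all genes called). Clk3 fell in Ctrl mice at 7 d against 8 h (10.5% of all genes called).

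Heat shock genes, which cooling is known to lower, were set beside the members. Of 22 in the list 20 were measured. At 0 h CIE lowered 3 (Hspb1, Chordc1 and Hsph1) and raised 0, where 3.09% of all genes were called, and 16 of the 20 had a lower mean in CIE, with a list median of -0.12 against 0.0009 over all genes. Hspb1, a small heat shock protein, averaged 8.95 ± 0.06 in CIE mice and 9.44 ± 0.16 in Ctrl mice, without overlap (difference -0.49, SE 0.079, adjusted p = 5.85e-05). At 0 h 1.35% of probesets had no overlap in this direction. Hsph1, a nucleotide exchange factor of HSP70, averaged 11.72 ± 0.04 in CIE and 11.92 ± 0.09 in Ctrl (difference -0.20, adjusted p = 0.000395). Chordc1, an HSP90 co-chaperone, averaged 10.55 ± 0.09 in CIE and 10.85 ± 0.04 in Ctrl (difference -0.30, adjusted p = 0.000192).

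At 8 h CIE lowered 1 heat shock gene, Dnajb1, an HSP40 (11.03 ± 0.11 in CIE and 11.24 ± 0.10 in Ctrl, difference -0.21, adjusted p = 0.00713; 0.742% of all genes called), and 17 of 20 had a lower mean in CIE (list median -0.099, all genes -0.0082). At 72 h and 7 d 0 of 20 were called, with list medians of 0.029 and 0.022 against -0.0036 and 0.014 over all genes. The largest uncalled differences were those of Hspa4 (-0.29, adjusted p = 0.0299) and Serpinh1 (-0.27, adjusted p = 0.0531) at 0 h and of Hspa1b (-0.32, adjusted p = 0.446) at 8 h.

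The list was also counted in 4 comparisons over time. In CIE mice at 8 h, against 0 h, 5 heat shock genes rose (Hsph1, Hspb1, Dnaja1, Chordc1 and Serpinh1; list median 0.12, all genes 0.024, 2.97% of genes called) where Cirbp and the brighter probeset fell and the dimmer probeset rose. In Ctrl mice at 8 h, against 0 h, 2 rose (Hspa1b by 0.74, adjusted p = 0.00497, and Hsph1 by 0.18, adjusted p = 0.00528; list median 0.085, all genes 0.032, 0.682% of genes called) where the brighter probeset fell. In Ctrl mice at 7 d, against 0 h, 3 fell (Dnajb1, Bag3 and Chordc1) and 0 rose, and 19 of 20 had a lower mean (list median -0.14, all genes -0.021, 2.94% of genes called), where the dimmer probeset fell and Cirbp (0.13, adjusted p = 0.255) and the brighter probeset (0.056, adjusted p = 0.437) were not called. In Ctrl mice at 7 d, against 8 h, 13 of 20 fell and 0 rose (list median -0.21, all genes -0.050, 10.5% of genes called), Hspa1b by 1.16 and Hspb1 by 0.53 on the log2 scale, where Cirbp and the brighter probeset rose and the dimmer probeset fell. The comparisons in Ctrl mice share groups with one another, and those of CIE against Ctrl at 0 h and 8 h share groups with them.

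**Figure D4:**
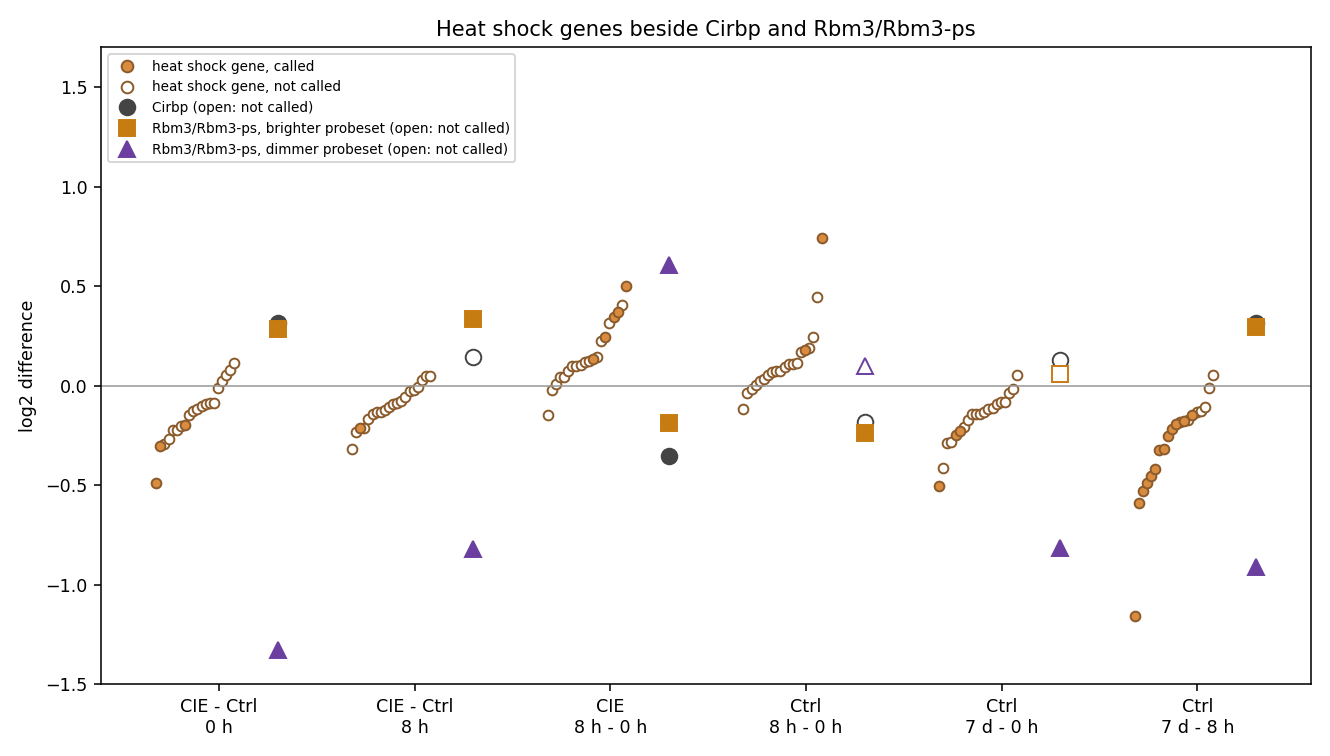
Log2 differences of the 20 measured heat shock genes (small circles, sorted within a comparison) beside Cirbp (large circles) and the brighter (squares) and dimmer (triangles) Rbm3/Rbm3-ps probesets, with comparisons on the x axis. Filled symbols passed an adjusted p of 0.01 and open ones did not. Where called, Cirbp and the brighter probeset lie on the other side of 0 from the called heat shock genes and the dimmer probeset on the same side, while at 7 d against 0 h in Ctrl mice the dimmer probeset was the 1 member called.

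Hspb1 was also the gene least like Cirbp of all 18193 genes, by Pearson correlation over the 46 arrays (r = -0.82, within groups -0.57), followed by P4ha1 (-0.78), Hsph1 (-0.77), Hnrnpc (-0.76) and Atg3 (-0.73). The dimmer probeset had Hspb1 among the genes most like it (r = 0.81, within groups 0.62), after Fbxo30 (0.84) and A230009B12Rik (0.83) and before Cfp, Pnp, Naf1, H2bc21, Micall1, Septin11 and Fam185a (0.77 to 0.80). The genes least like it were Naaa (-0.81), Fkbp5 (-0.77), Cep83os (-0.75), Zc3h14 (-0.74) and Nudt16 (-0.73). Mouse 69 of CIE at 8 h, with the lowest Cirbp of its group, had the highest Hspb1 of that group (9.81). Mouse 41, with the highest Cirbp, had 9.27, while mice 15 and 40 had less (9.23 and 9.24).

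The genes most like Cirbp were Chpf2 (r = 0.71, within groups 0.72), Sin3b (0.67), Hmgb3, Paqr3, 2410002F23Rik, Nfrkb, Plvap, Hmgn3, Nudcd3 and Ankrd39 (0.65 to 0.66). Those most like the brighter probeset were Nudt16 (0.77), Cdkn1a, a cell cycle inhibitor (0.74), Ada, Gabrr2, Ddit4, Rhoj, Fkbp5, Arrdc2, Xpa and Zbtb16 (0.72 to 0.74). Among these, Fkbp5, Ddit4, Cdkn1a and Zbtb16 are known to be induced by glucocorticoids. The least like it were Wdr78 (-0.81), Hsph1 (-0.79), Vezt (-0.79), Mpp4 (-0.78) and Bcs1l (-0.77). Within groups Cdkn1a correlated with the brighter probeset at 0.38, Fkbp5 at 0.26 and Wdr78 at -0.10, so most of the likeness lay between groups. No p is given for these correlations, since arrays share groups and normalization.

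**Figure D5:**
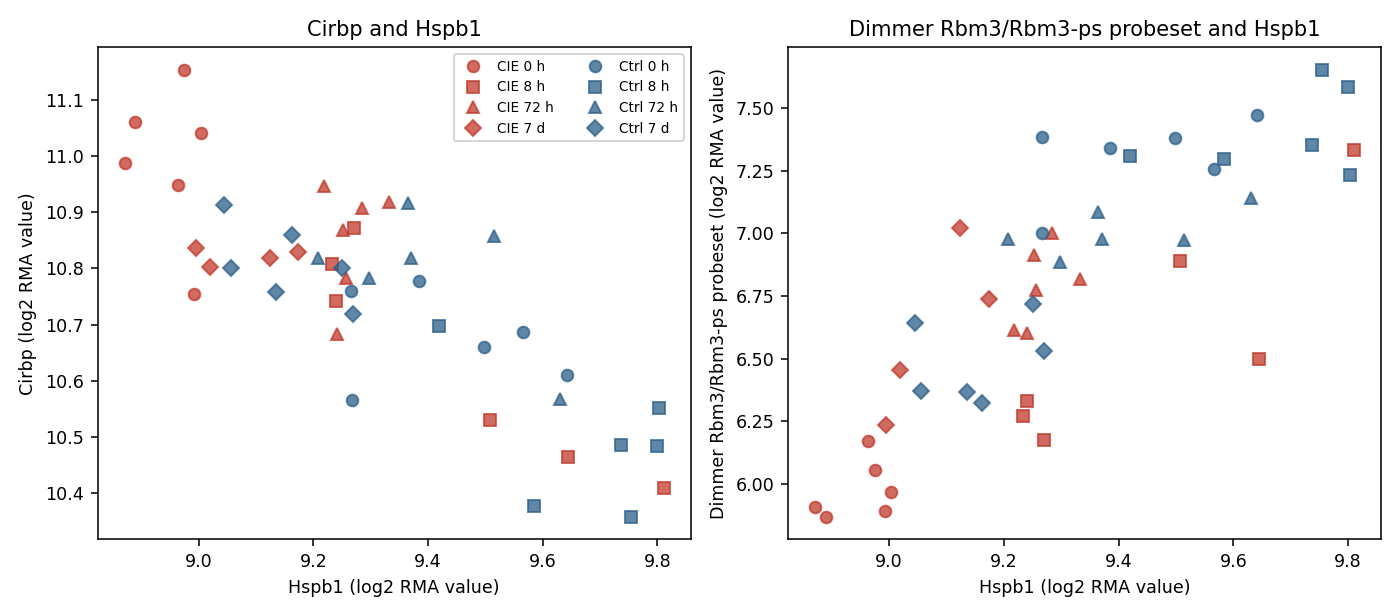
Each point is 1 of 46 mice, CIE in red and Ctrl in blue, with marker shape for the time and log2 RMA values on both axes. Cirbp (left) was lower in mice with more Hspb1 (r = -0.82), and the dimmer Rbm3/Rbm3-ps probeset (right) was higher (r = 0.81).

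Of 19 circadian clock genes, all measured, CIE raised 2 at 0 h and lowered 0 (3.09% of all genes called; list median 0.047, all genes 0.0009), and 0 were called at 8 h, 72 h and 7 d. Ciart, a repressor of the clock, averaged 8.43 ± 0.11 in CIE and 7.80 ± 0.09 in Ctrl at 0 h (difference 0.63, adjusted p = 5.31e-07), and Tef, a PAR bZIP output factor, 11.72 ± 0.08 in CIE and 11.30 ± 0.08 in Ctrl (difference 0.42, adjusted p = 1.13e-06), both with all 6 CIE mice above all Ctrl mice. At 0 h 1.15% of probesets had no overlap in this direction. In CIE mice at 8 h, against 0 h, Per2 and Nfil3 rose and Ciart, Dbp, Nr1d1, Tef and Nr1d2 fell (7 of 19, 2.97% of all genes called), and in Ctrl mice 0 of 19 were called in the same comparison (0.682% of all genes). The change differed between the treatments for 2 of these 7, Ciart (-0.74 in CIE and -0.14 in Ctrl, a difference of -0.59, adjusted p = 0.00448) and Tef (-0.31 in CIE and 0.14 in Ctrl, a difference of -0.45, adjusted p = 0.00182), among 0.0799% of all probesets called, and not by the test for the other 5. In Ctrl mice at 7 d, against 8 h, Ciart rose by 0.70 and Dbp by 0.43 and Nfil3 fell by 0.43 on the log2 scale (adjusted p = 3.46e-08, 0.000248 and 0.000439), in a comparison that called 10.5% of all genes. Of 21 thermosensor and fever genes 19 were measured, and 0 were called for CIE against Ctrl at any time. The largest differences were those of Ptgs2, the inducible cyclooxygenase (-0.31 at 0 h, adjusted p = 0.3), and Il6 (0.32 at 8 h, adjusted p = 0.0982).

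Markers of several cell types also differed between CIE and Ctrl at 0 h, and at 72 h, where no member was called. Of 55 marker genes of neurons, glia, vessels and choroid plexus, 2 rose (Npy2r and Kl) and 4 fell (Fcrls, Kdr, Vtn and Kcnj8) in CIE at 0 h, which is 10.9% of the markers, against 3.09% of all genes. At 8 h Fcrls was the 1 marker called (1.82% of the 55 markers, against 0.742% of all genes), lower in CIE by 0.86 on the log2 scale. At 0 h the mean was lower in CIE for 8 of 8 endothelial and mural markers (list median -0.27) and for 6 of 7 microglial markers (list median -0.24), against a median of 0.0009 over all genes. The summed level of the 8 endothelial and mural markers, given as their mean log2 value in each mouse, lay between 8.66 and 8.84 in CIE mice and between 8.90 and 9.17 in Ctrl mice at 0 h. At 8 h it lay between 8.66 and 9.10 in CIE and between 8.73 and 9.07 in Ctrl. For the 7 microglial markers it lay between 9.41 and 9.81 in CIE and between 9.76 and 10.15 in Ctrl at 0 h, and between 9.46 and 9.97 in CIE and between 9.60 and 9.99 in Ctrl at 8 h. At 72 h it lay between 9.58 and 9.91 in CIE and between 10.02 and 10.16 in Ctrl. The mean was then lower in CIE for 7 of 7 microglial markers (list median -0.44) and 6 of 6 oligodendrocyte markers (-0.19), against -0.0036 over all genes. Otx2 rose and Lhx8 fell at 72 h, 3.64% of the 55 markers against 0.687% of all genes. Of 7 markers of striatal medium spiny neurons, which lie next to the BNST, 5 were measured and 0 were called in any of the 8 comparisons in which lists were counted. Their mean was higher in CIE for 5 of 5 at 0 h (list median 0.39) and for 1 of 5 at 8 h (list median -0.12). It was lower for 5 of 5 in CIE mice at 8 h against 0 h (list median -0.26), and higher for 5 of 5 in Ctrl mice at 7 d against 8 h (0.47) and against 0 h (0.57). Averaged over the 5 markers in each mouse, their level lay between 9.45 and 10.6 in CIE and between 9.13 and 10.0 in Ctrl at 0 h, and between 9.15 and 10.4 in CIE and between 8.92 and 10.3 in Ctrl at 8 h. The part of cell composition and of dissection in the results was not tested.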

How the data were processed

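RNA from the BNST of 46 mice (22 CIE, 24 Ctrl, 8 groups of treatment and time from the labels) was hybridized to Affymetrix mouse arrays, 1 mouse per array. The values were log2 intensities as deposited. The authors summarised probesets by RMA with quantile normalization within hybridization batches, quantile normalized all arrays together and removed the hybridization batch with ComBat. Tool versions are not given in the sources used here, nor is the batch of each array. No within-batch value can therefore be given, and how ComBat changed the group differences cannot be checked. Quantile normalization hides a shift shared by most genes. Signal over background per probeset was not given, so no probeset was called absent, and the number of mice limits the precision. All columns of the table were used.

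Gene names came from the platform annotation: 34945 probesets had 1 symbol, 932 several and 9160 none. Both Rbm3 probesets carry several symbols and were kept because the member rule takes any listed symbol; the one with the higher mean stands for Rbm3 in the alternatives. Other genes were read by the probeset with the highest mean among those with that 1 symbol (18193 genes). Each probeset was fitted by its 8 group means with limma 3.58.1 in R 4.3.3 (38 residual and 3.94 prior degrees of freedom), two-sided, with Benjamini-Hochberg adjustment within each comparison over 45037 probesets. The script was tested on simulated data.

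The members and all lists were chosen with earlier results of these data known. Genes named were the members, list genes called for CIE against Ctrl and at most 3 of the largest uncalled per list, and the 10 genes most and 5 least correlated with a member; Rbm3os, Srsf2, Rbmxl1, Il6, the marker genes and genes called in the comparisons over time were added after their values were seen. Alternatives were array weights, trend and robust shrinkage, arrays aligned to a shared median, a filter on mean log2, a fit of only the groups compared, the exact permutation test, the other Rbm3 probeset and leaving out each mouse. Promoter sequences are RefSeq's on GRCm38.p6.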

Additional observations from a re-analysis of the deposited data

Results flagged for a closer look

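The brighter Rbm3/Rbm3-ps probeset had 1 mouse apart from its group: Ctrl mouse 56 at 0 h lay at 11.60, with the next mouse at 11.70. This was 1 of 24 groups of a probeset checked, and chance flags about 1 in 20. The same mouse had the lowest Cirbp (10.56) and the lowest value of the dimmer probeset (7.00) among Ctrl mice at 0 h.

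The CIE effect differed between times by a test of the difference itself in 6 cases among the members. For the brighter probeset the effect at 7 d minus that at 0 h was -0.31 (adjusted p = 0.00261), at 72 h minus 8 h -0.29 (adjusted p = 0.00296) and at 7 d minus 8 h -0.37 (adjusted p = 0.000848). For the dimmer probeset the effect at 72 h minus that at 0 h was 1.11 (adjusted p = 0.000134), at 7 d minus 0 h 1.45 (adjusted p = 1.1e-05) and at 7 d minus 8 h 0.94 (adjusted p = 0.00937). No such difference was called for Cirbp. Of the clock genes named, 2 had a CIE effect that differed between 8 h and 0 h, Ciart (-0.59, adjusted p = 0.00448) and Tef (-0.45, adjusted p = 0.00182).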

How the results depend on the processing

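Under alternatives other than leaving out a mouse, 124 values kept their direction and side of the threshold or, for counts, stayed within 1.5 times the main count, and 20 did not. A fit of only the groups compared, with fewer arrays to estimate the spread, ended these calls: Cirbp at 0 h (0.31, adjusted p = 0.0313), the brighter probeset at 8 h (0.34, adjusted p = 0.0145), the dimmer probeset at 8 h (-0.82, adjusted p = 0.0653), the changes within CIE at 8 h against 0 h of Cirbp (-0.35), the brighter probeset (-0.19) and the dimmer probeset (0.61), and that of the brighter probeset within Ctrl (-0.24). Its counts of called probesets were 287, 36 and 404 for 0 h, 8 h and 72 h, where the fit of all groups called 1079, 251 and 195. Array weights called 476 at 8 h and 1151 at 72 h. The two-sided exact permutation test over mice, whose smallest p is 0.00216 with 6 against 6 mice, gave p = 0.00649 for Cirbp at 0 h (0.31) and p = 0.00866 for the dimmer probeset at 8 h (-0.82); after adjustment over its 12 comparisons neither passed. Reading Rbm3 by the dimmer probeset reversed its CIE effects to -1.33, -0.82, -0.22 and 0.12 (0 h, 8 h, 72 h, 7 d) and its changes at 8 h against 0 h to 0.61 in CIE and 0.098 in Ctrl. 

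With each mouse left out in turn, Cirbp at 0 h lay between 0.28 and 0.36 and lost its call without CIE mouse 19 or 26 or Ctrl mouse 56, and the fall of the brighter probeset within CIE at 8 h lay between -0.21 and -0.16 and lost its call without CIE mouse 69. At 7 d, where nothing was called, the sign turned for Cirbp (-0.0044 to 0.034), the brighter probeset (-0.064 to 0.0029) and the dimmer probeset (-0.016 to 0.25). Counts of called probesets ran from 689 to 1459 at 0 h (lowest without CIE mouse 57), 162 to 225 at 8 h (lowest without Ctrl mouse 42), 28 to 230 at 72 h and 0 to 1 at 7 d, where 2226 probesets had an unadjusted limma p under 0.05. No paired analysis was possible because replicate numbers name single mice and no number is shared between groups.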
